A study of Homo sapiens with 12 samples.

Results

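FOXO factors and a small set of genes known to be switched on by them are described here: FOXO1, FOXO3, FOXO4, INSR, IRS2, KLF6, CCNG2, CITED2 and BCL6, 9 of the 59424 genes measured. They were chosen by what FOXO1 did in these libraries: it changed in opposite directions after loss and gain of the glycosylation enzyme GALNT7, and it varied strongly among the control libraries of 1 cell line. The question was whether its paralogs and targets followed it. Because FOXO1 was selected on its own values, those are given as a description with no test, and the other 8 genes were tested together with all genes.

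RNA-seq libraries came from 2 human prostate cancer cell lines. CWR22Rv1 cells had been transduced with a lentiviral control shRNA (shControl) or with a lentiviral shRNA against GALNT7 (GALNT7 KD). DU145 cells carried a lentiviral control open reading frame (OE control) or the GALNT7 reading frame (GALNT7 OE). There were 3 biological replicates in each of 4 groups, and nothing in the sources used here says how separate their cultures were, so the p-values measure the spread between these libraries. Whether the stable lines were clones or mixed pools is not given in the sources used here. Knockdown and overexpression were thus made in different cell lines, so the direction of the construct and the cell line cannot be told apart.

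FOXO proteins are transcription factors with a forkhead DNA-binding domain that act downstream of insulin and growth factors. When PI3 kinase is active, AKT and SGK kinases phosphorylate them, 14-3-3 proteins bind the phosphorylated forms, and they are exported from the nucleus; when the route is quiet they enter the nucleus and switch on genes for cell cycle arrest, apoptosis, stress defence, autophagy and the uptake of insulin signals. An mRNA level therefore says how much transcript was present and nothing of where the protein was. In prostate cancer FOXO1 is known as a tumour suppressor that restrains the cell cycle.

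The letters GTAAACA, a core sequence recognised by FOXO and related forkhead factors, were looked up on both strands (where the other strand carries them they read TGTTTAC) in the RefSeq promoters of the 9 genes, each from 250 bases before to 50 bases after a transcription start on GRCh38.p14. The 9 genes have 15 such promoters, and only that of FOXO4 held the motif (1 of 15, 6.67%), against 1202 of 35116 promoters of all genes (3.42%). It is shown with that of FOXO1, the transcript with the widest range, in lower case from 5′ to 3′ with the motif in capitals.
FOXO1, chr13:40666592-40666891, minus strand: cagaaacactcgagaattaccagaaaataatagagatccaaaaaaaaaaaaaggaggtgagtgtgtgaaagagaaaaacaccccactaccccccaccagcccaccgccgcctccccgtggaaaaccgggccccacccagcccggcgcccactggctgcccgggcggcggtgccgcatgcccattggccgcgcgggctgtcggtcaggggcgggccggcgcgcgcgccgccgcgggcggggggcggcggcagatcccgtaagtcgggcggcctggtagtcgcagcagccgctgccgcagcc
FOXO4, chrX:71095601-71095900, plus strand: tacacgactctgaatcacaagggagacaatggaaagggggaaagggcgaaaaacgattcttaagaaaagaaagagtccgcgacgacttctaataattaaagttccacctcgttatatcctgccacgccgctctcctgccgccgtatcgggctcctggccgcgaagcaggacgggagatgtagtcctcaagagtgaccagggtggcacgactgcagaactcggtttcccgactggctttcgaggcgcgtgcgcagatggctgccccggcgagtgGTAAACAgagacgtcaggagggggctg
The motif of FOXO4 begins 24 bases into the transcript. A match is a description of the letters and not of a bound site, and its absence from these windows says nothing of sites elsewhere.

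GALNT7 itself came first, to see whether the libraries bear out their labels. It had normalised counts of 862, 1042 and 1093 in the shControl libraries and 481, 501 and 399.7 in GALNT7 KD (log2 fold change -1.11, SE 0.129, limma adjusted p=0.00512). DU145 libraries held 1051, 928 and 913 in the OE control and 1988, 2221 and 2334 in GALNT7 OE (log2 fold change 1.18, SE 0.0863, limma adjusted p=7.99e-05). The groups did not overlap in either cell line. Library depth was between 18364512 and 24356910 recovered reads, and 9.06% of 17906 genes were past the threshold (adjusted p under 0.05) in knockdown (5.28% higher, 3.79% lower) against 43.5% of 18705 in overexpression (22.9% higher, 20.5% lower). With the libraries rescaled to their 75th percentile, 41.6% instead of 52.8% of the overexpression calls were higher and the median log2 fold change of all genes was -0.108 instead of -0.0114, so that small overexpression changes depend on the scaling. The 4 epithelial markers summed to between 20827 and 25908 in every library, CD3E was at 0 throughout, and a list of 8 leukocyte, endothelial and fibroblast genes summed to between 70.4 and 112 in CWR22Rv1 cells. That list summed to between 389 and 514 in the OE control and between 94.3 and 191 in GALNT7 OE, mostly COL1A1 and CD14; the part of this in the DU145 results was not tested. In bulk RNA, fewer cells of a type and less RNA per cell cannot be told apart.

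FOXO1 rose with loss of GALNT7 and fell with its gain, which is how it was selected. In CWR22Rv1 cells its normalised count was 227, 259 and 234 in shControl and 1663, 1840.1 and 1192 in GALNT7 KD, a ratio of the means of 6.52. In DU145 cells it was 374, 2138 and 2544 in the OE control and 163, 183 and 165 in GALNT7 OE, where the control mean was 9.9 times the GALNT7 OE mean. Neither cell line showed overlap, but the OE control held a low library beside 2 high ones: replicate 1 stood at 2.2 times the GALNT7 OE mean and replicates 2 and 3 averaged 6.26 times replicate 1. Behind these values were 392, 2091 and 2525 recovered reads. The log2 fold change was 2.68 in knockdown and -2.89 in overexpression, and without OE control replicate 1 the latter was -3.77. The FOXO1 gene (ENSG00000150907; minus strand of chromosome 13, 40469953 to 40666597 on GRCh38, as for all positions below) is protein-coding. Its exons share up to 167 bases on the same strand with those of the long non-coding RNA LINC00598, which had normalised counts of at most 10.2 in any library.

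**Figure D1:**
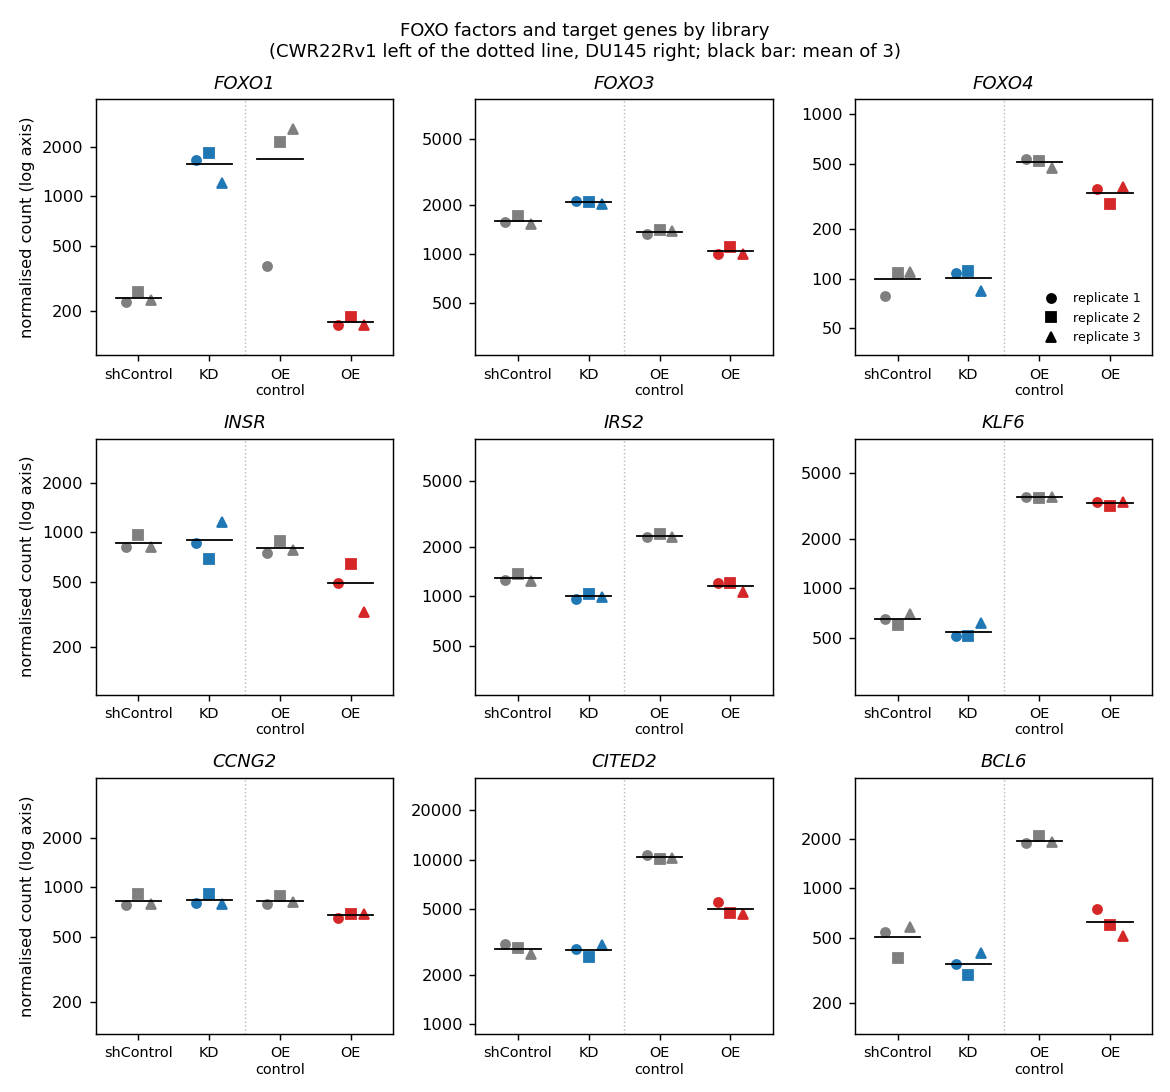
Normalised counts (log axis, the same fold range in every panel) of the 9 genes in the 12 libraries. Points are libraries, with the symbol giving the replicate, grey for both control groups, blue for GALNT7 KD and red for GALNT7 OE; black bars are means of 3. FOXO1 in OE control replicate 1 (374) lies far below replicates 2 and 3 (2138 and 2544), while the other 8 genes have 3 close OE control values.

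FOXO3, a close paralog with overlapping targets, followed the direction of FOXO1 in both cell lines on a much smaller scale. Its normalised count was 1563, 1695 and 1519 in shControl and 2106, 2067 and 2021 in GALNT7 KD. All knockdown libraries were above all controls, a log2 fold change of 0.38 (SE 0.0619, limma adjusted p=0.0162) or 1.3 fold. In the OE control it was 1323, 1402 and 1373, and in GALNT7 OE 1005, 1103 and 1001. Here all treated libraries were below all controls, with a log2 fold change of -0.40 (SE 0.0648, limma adjusted p=0.00267). The knockdown call was lost without shControl replicate 1 (adjusted p=0.0687), shControl replicate 3 (0.0613) or GALNT7 KD replicate 1 (0.0707), the 3 fits in which the log2 fold change was 0.36, 0.34 and 0.36. FOXO3 (ENSG00000118689; chromosome 6, 108559835 to 108684774, plus strand) has a near-identical copy on chromosome 17, FOXO3B, between which reads may have been divided. FOXO3B had 28.2 to 87.5 normalised counts and did not pass the test in knockdown (log2 fold change 0.46, limma adjusted p=0.142) or in overexpression (0.32, limma adjusted p=0.483).

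FOXO4, an X-linked paralog with the same AKT-controlled export, was low in CWR22Rv1 cells, with normalised counts of 78.4, 109 and 109 in shControl and 108, 111 and 83.8 in GALNT7 KD. The groups overlapped, and the difference of 0.04 on the log2 scale had a 95% interval from -0.43 to 0.51 (limma adjusted p=0.931). A change anywhere in that interval is compatible with these libraries. DU145 libraries held 535, 519.5 and 472 in the OE control and 349, 285 and 362 in GALNT7 OE. They did not overlap, and FOXO4 fell by 0.62 on the log2 scale (SE 0.116, limma adjusted p=0.00499). The gene (ENSG00000184481) occupies 71096197 to 71103535 on the plus strand of chromosome X. FOXO6, a paralog that is not exported in the same way and was looked at after its values were seen, had 15 to 41.4 normalised counts. It was within the spread in knockdown (log2 fold change 0.17, limma adjusted p=0.651) and just past the threshold in overexpression (log2 fold change -0.69, SE 0.232, limma adjusted p=0.04996), a call lost in all 6 fits that left out a library (adjusted p up to 0.136), with quantile normalisation (0.256), with the replicate block (0.0964), with no filter on low values (0.138) and with a pseudocount of 0.5 (0.0501).

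Levels of the 3 paralogs can be compared when divided by exon length, although those of FOXO1 are the values it was selected on. In shControl cells FOXO3 had 206 ± 11.8 normalised counts per kilobase of exon (SD, n=3), against 38.5 ± 2.71 for FOXO1 and 28.6 ± 5.1 for FOXO4, the last a pair whose means differed by more than either SD. In GALNT7 KD the order of the means was the same, with FOXO3 at 267 ± 5.5 and FOXO1 at 251 ± 53.7, which do not differ beyond their spread, and FOXO4 at 29.3 ± 4.34. In the OE control the order was FOXO1 at 270.5 ± 185, FOXO3 at 177 ± 5.19 and FOXO4 at 148 ± 9.54, but FOXO1 overlapped both because of replicate 1. In GALNT7 OE the order was FOXO3 at 134 ± 7.51, FOXO4 at 96.2 ± 12 and FOXO1 at 27.3 ± 1.76, with no SD reaching the next. The 2 cell lines were scaled in separate tables, so no level is set against one from the other cell line.

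INSR and IRS2 belong to the input of the route: the insulin receptor, and the adaptor that carries its signal to PI3 kinase. Both are induced by FOXO factors, a known feedback that raises insulin sensitivity when the route is quiet. INSR (ENSG00000171105; chromosome 19, 7112255 to 7294034, minus strand) had 812, 965 and 811 normalised counts in shControl and 861, 686 and 1163 in GALNT7 KD. Knockdown libraries lay on both sides of the controls, with a difference of 0.04 on the log2 scale (95% interval -0.41 to 0.49, limma adjusted p=0.93). DU145 cells had 749, 889 and 782 in the OE control and 495, 645 and 330.4 in GALNT7 OE. The groups did not overlap and INSR fell by 0.77 on the log2 scale (SE 0.23, limma adjusted p=0.0327). That call was lost without OE control replicate 1 (adjusted p=0.063), 2 (0.0945) or 3 (0.0725) and without GALNT7 OE replicate 1 (0.0667).

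IRS2 fell in both cell lines, in CWR22Rv1 cells against the rise of FOXO1. Its normalised count was 1249.8, 1362 and 1239.7 in shControl and 965, 1036 and 991 in GALNT7 KD. Every knockdown library was below every control, a log2 fold change of -0.36 (SE 0.0688, limma adjusted p=0.0242). It passed the threshold in all 6 libraries together but not without shControl replicate 1 (adjusted p=0.0768), 2 (0.0716) or 3 (0.0658), nor without GALNT7 KD replicate 1 (0.0926) or 3 (0.0523). DU145 cells had 2298, 2378 and 2308 in the OE control and 1212, 1201 and 1057 in GALNT7 OE. IRS2 there fell 2.02 fold, by 1.01 on the log2 scale (SE 0.0683, limma adjusted p=5.62e-05), with every library of GALNT7 OE below every control. The gene (ENSG00000185950) is on chromosome 13, as FOXO1 is, from 109752698 to 109786568 on the minus strand, and shares up to 115 bases of exon with an antisense RNA on the other strand; the library kit kept the strand.

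The remaining 4 genes act on transcription or the cell cycle. BCL6 and CITED2 are transcriptional regulators: BCL6 is a zinc finger repressor induced by FOXO factors, and CITED2 binds the coactivators CBP and p300 and limits hypoxia signalling. BCL6 (ENSG00000113916; chromosome 3, 187721377 to 187745727, minus strand) had 546, 378 and 586 normalised counts in shControl and 345, 295 and 405 in GALNT7 KD. The highest knockdown library was above the lowest control, and the log2 fold change of -0.52 (95% interval -0.98 to -0.05) did not pass the threshold (limma adjusted p=0.153). DU145 cells had 1887, 2079 and 1904 in the OE control and 754, 598 and 516 in GALNT7 OE. This was the largest change among the 8 genes tested, a 3.18 fold fall (log2 fold change -1.67, SE 0.136, limma adjusted p=0.000129) with no overlap. BCL6 also shares bases with 2 antisense RNAs on the other strand.

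CITED2 (ENSG00000164442; chromosome 6, 139371807 to 139374620, minus strand) had 3048, 2891 and 2674 normalised counts in shControl and 2856, 2554 and 3039.9 in GALNT7 KD. The groups overlapped, and the log2 fold change was -0.03 (95% interval -0.22 to 0.17, limma adjusted p=0.865). Its level per kilobase of exon was the highest of the 9 genes in both cell lines. In DU145 cells it had 10746, 10105 and 10208 in the OE control and 5540.4, 4710.1 and 4693 in GALNT7 OE. Every treated library was far below every control, a fall of 2.08 fold (log2 fold change -1.06, SE 0.071, limma adjusted p=5.46e-05).

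CCNG2 encodes cyclin G2, an unusual cyclin that goes with cell cycle exit, and KLF6 a zinc finger factor with tumour suppressor activity in prostate. CCNG2 (ENSG00000138764; chromosome 4, 77157151 to 77433388, plus strand) had 784, 909 and 789 normalised counts in shControl and 799, 909.9 and 789 in GALNT7 KD. These sets of values were almost the same, with a log2 fold change of 0.01 (95% interval -0.22 to 0.24, limma adjusted p=0.967). In the OE control it was 792, 887 and 811 and in GALNT7 OE 654, 691 and 688, a small fall without overlap (log2 fold change -0.29, SE 0.0725, limma adjusted p=0.0165) whose call was lost without OE control replicate 2 (adjusted p=0.0567).

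KLF6 (ENSG00000067082; chromosome 10, 3775996 to 3785281, minus strand) had 645, 594 and 698 normalised counts in shControl and 510.5, 509 and 613 in GALNT7 KD. The highest knockdown library overlapped the lowest control, with a log2 fold change of -0.25 (95% interval -0.51 to 0.01, limma adjusted p=0.205). DU145 libraries had 3589, 3517 and 3586 in the OE control and 3325, 3149 and 3344 in GALNT7 OE. These groups did not overlap, but the log2 fold change was only -0.12 (SE 0.0441) and its limma adjusted p of 0.0593 missed the threshold; after 75th percentile scaling it was -0.22 (adjusted p=0.00767) and after quantile normalisation -0.23 (adjusted p=0.00815).

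Side by side, the 8 genes besides FOXO1, all of which passed the filter on low counts, behaved differently in the 2 cell lines. In knockdown 2 of 8 passed the test, FOXO3 higher and IRS2 lower, where 9.06% of all genes did. Their log2 fold changes were above 0 for 4 and below 0 for 4, with a median of -0.0101 beside -0.00628 over all genes. In overexpression 7 of 8 passed and all 7 were lower, where 20.5% of all genes were called lower. All 8 were below 0, with a median of -0.69 beside -0.0114 over all genes. The members were picked with results of these data known, and these counts describe them without a test of the set.

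**Figure D2:**
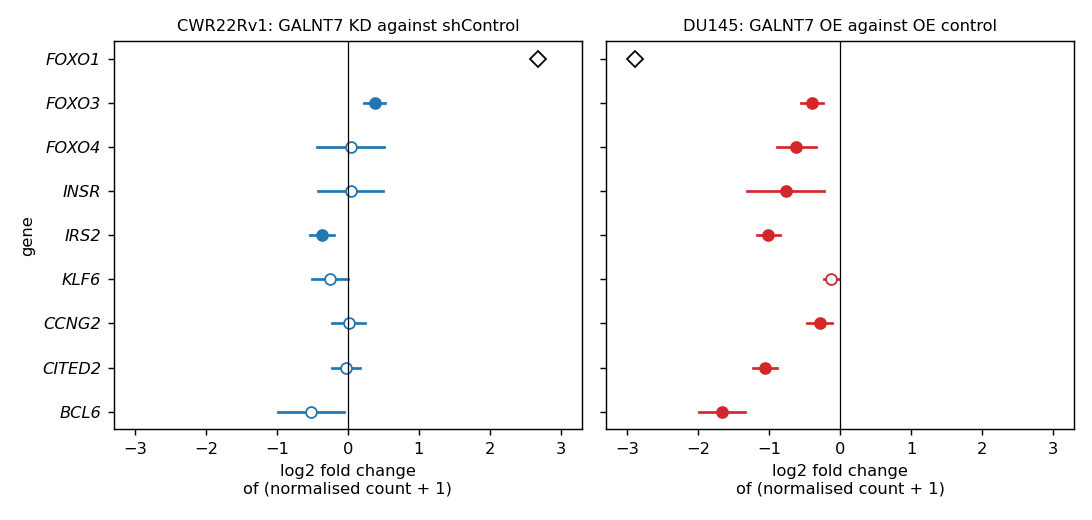
Log2 fold change of each gene in GALNT7 KD against shControl (left, CWR22Rv1) and GALNT7 OE against OE control (right, DU145), on the log2(normalised count + 1) scale. Circles are the 8 tested genes with 95% intervals, filled where the limma adjusted p is under 0.05; the open diamond is FOXO1, on whose values the genes were selected and which has no interval. The 8 genes scatter around 0 on the left and all lie below 0 on the right.

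The OE control libraries let the same question be asked without the GALNT7 construct, since FOXO1 was 2.64 lower on the log2 scale (6.22 fold) in replicate 1 than the mean of replicates 2 and 3. None of the 8 other genes shared that difference. Replicate 1 minus the mean of the other 2 was -0.07 for FOXO3, 0.11 for FOXO4, -0.15 for INSR and -0.03 for IRS2. It was 0.02 for KLF6, -0.10 for CCNG2, 0.08 for CITED2 and -0.08 for BCL6. The largest of these, that of INSR, is no wider than the 0.18 by which its replicates 2 and 3 differed. No gene of the 8 reached 0.5 in either direction, a size that 6.48% of the 13637 genes averaging 50 normalised counts or more and 16.0% of all genes tested reached. Their median was -0.05, beside 0.00742 over all genes tested, and 5 of 8 were below 0, beside 48.1% of all genes. With 1 library on 1 side there is no replicate check, so these are values without a test.

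BCL6, with the largest change of the 8 in overexpression, had close values in the 3 control libraries. In OE control replicate 1, with FOXO1 at 374, BCL6 stood at 1887, next to 1904 in replicate 3, where FOXO1 was at 2544. In the GALNT7 OE libraries, with FOXO1 between 163 and 183, it stood between 516 and 754. CITED2 likewise was highest, at 10746, in the control library with the least FOXO1. GALNT7 was 0.19 higher on the log2 scale in replicate 1 than in the other 2, against 1.18 for the construct. FOXO1 was not alone in being low there: 27 of the 13637 genes with a mean of at least 50, FOXO1 included, were lower in replicate 1 by as much or more.

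**Figure D3:**
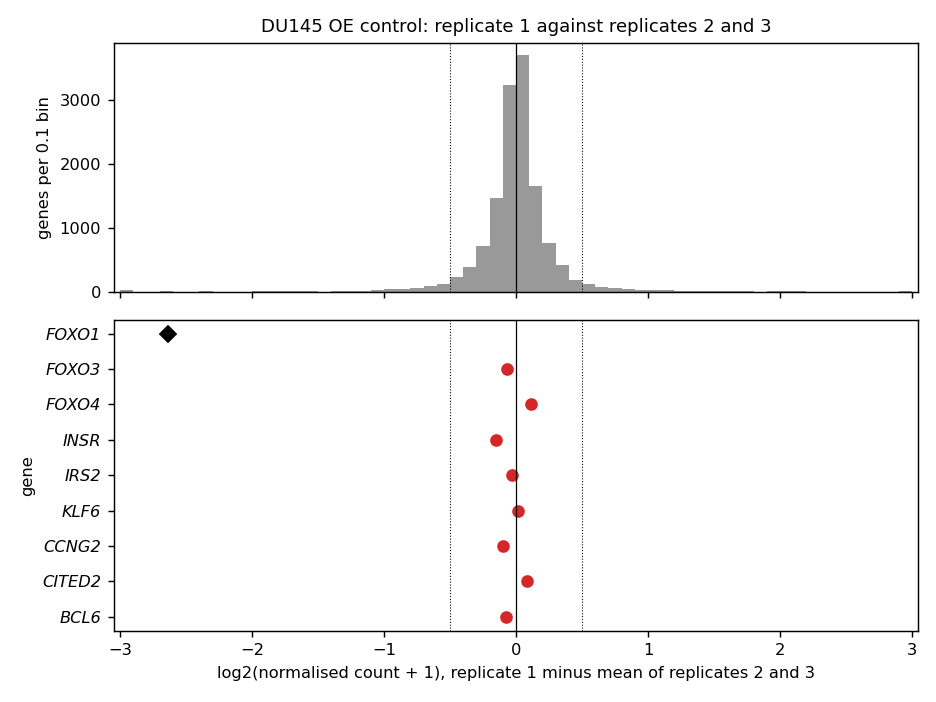
DU145 OE control, log2(normalised count + 1) of replicate 1 minus the mean of replicates 2 and 3. Upper panel, number of genes averaging 50 normalised counts or more in bins of 0.1, with values beyond the axis in the end bins; lower panel, the 9 genes, FOXO1 as a black diamond and the others as red circles. Dotted lines mark a difference of 0.5 either way. FOXO1 lies at -2.64 and the other 8 between -0.15 and 0.11.

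The genes most like FOXO1 over the 6 libraries of a cell line were not members. Likeness was the root mean square difference between log2 profiles centred on their means, over genes averaging 50 normalised counts or more. The profiles were not scaled, so a gene that moved with FOXO1 by a much smaller amount could not rank near it. In DU145 cells MT1M, a metallothionein, was nearest of 13636 genes, with a difference of 0.289 where the FOXO1 profile itself had a root mean square of 1.69. It had 33.4, 199 and 169 normalised counts in the OE control and 19.0, 17.6 and 18.9 in GALNT7 OE, with OE control replicate 1 the lowest control library. PPP1R16B, LINC00937, ANO9 and AC084125.2 came next, at 0.547 to 0.638, and OE control replicate 1 was the lowest control library in each of them too. That these 5 are low in this library is set by how they were chosen, from the same 6 libraries and the FOXO1 profile. BCL6 was at rank 191, IRS2 at 774, CITED2 at 810, INSR at 1267, FOXO4 at 2075, FOXO3 at 2617, CCNG2 at 3264 and KLF6 at 4879. In CWR22Rv1 cells the nearest of 12958 genes was DEFB132, a beta-defensin, at 0.181, followed by a gene listed only as ENSG00000227715, S1PR3, CYP4F22 and STC1. FOXO3 was at rank 1186 there and BCL6 at 12163. Profiles share libraries, so ranks are a description.

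The wider pathway was read from lists of textbook genes, beginning with 38 further genes that FOXO factors induce. In GALNT7 KD 32 of them were tested, of which 8 rose (25.0%, against 5.28% of all genes), 3 fell (9.38%, against 3.79%) and 21 did not pass, with a median log2 fold change of 0.12. In GALNT7 OE 32 were tested, of which 4 rose (12.5%, against 22.9% of all genes), 21 fell (65.6%, against 20.5%) and 7 did not pass, with a median of -0.44. Without OE control replicate 1, 17 were lower and 4 higher. Of the 31 tested in both cell lines, 5 (16.1%) were higher in knockdown and lower in overexpression, as FOXO1 was, against 254 of the 16124 genes tested in both (1.58%): MXI1, SELENOP, GABARAPL1, MAP1LC3B and IGF1R. CDKN1A and BNIP3 were higher in both, TXNIP and ERBB3 lower in both, and none was lower in knockdown and higher in overexpression. The lists were drawn up with results of these data known.

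**Figure D4:**
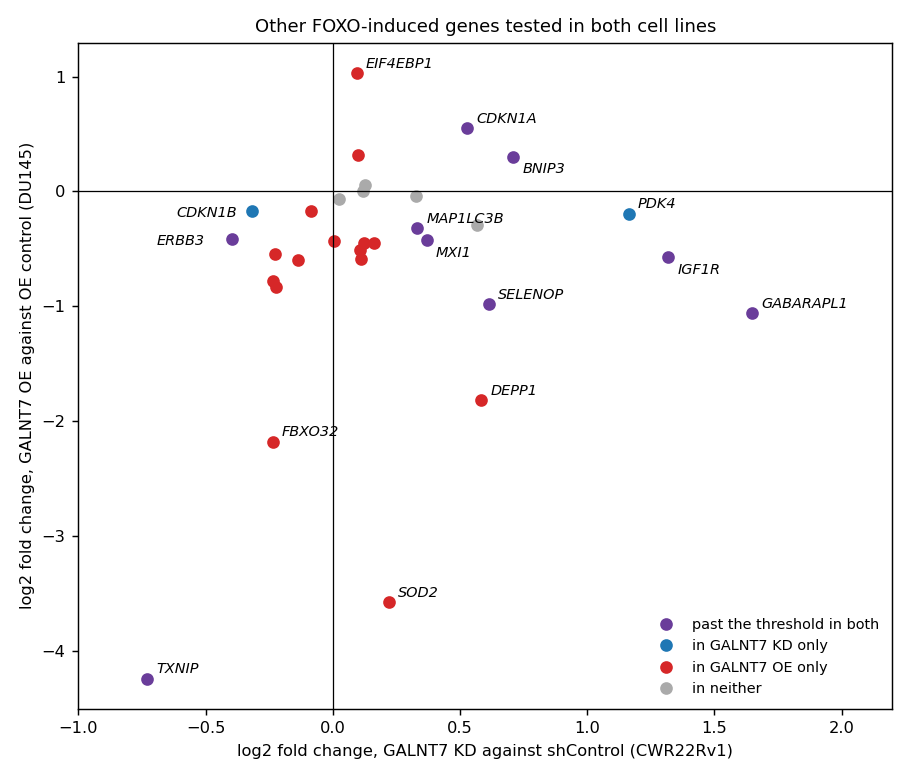
Log2 fold change in GALNT7 KD (horizontal) and GALNT7 OE (vertical) of the 31 further FOXO-induced genes tested in both cell lines, coloured by where the limma adjusted p is under 0.05. Named are those past the threshold in knockdown and those beyond 0.9 in overexpression. The 5 purple points at the lower right rose in knockdown and fell in overexpression, led by GABARAPL1 at 1.65 and -1.06.

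Of the 5 that rose with loss of GALNT7 and fell with its gain, 2 act in autophagy: GABARAPL1, whose log2 fold change was the largest of the 5 in both cell lines, and MAP1LC3B, whose was the smallest. GABARAPL1, which builds the autophagosome membrane, had 169.9, 145 and 134 normalised counts in shControl and 369, 429.9 and 647 in GALNT7 KD (log2 fold change 1.65, SE 0.218, limma adjusted p=0.00824). It had 1367, 1441 and 1448 in the OE control and 646, 679 and 711 in GALNT7 OE (log2 fold change -1.06, SE 0.0654, limma adjusted p=3.78e-05). In OE control replicate 1 it was thus 0.08 below the other 2 on the log2 scale. MAP1LC3B, a second membrane component, rose by 0.33 in knockdown (limma adjusted p=0.0265) and fell by 0.32 in overexpression (limma adjusted p=0.00137). Of the 7 autophagy and protein breakdown genes tested, 3 rose in knockdown (42.9%, against 5.28% of all genes). In overexpression 5 fell (71.4%, against 20.5% of all genes) and 1 rose (14.3%, against 22.9%). The 1 that rose was BNIP3, a mitophagy receptor (log2 fold change 0.30, limma adjusted p=0.00973). FBXO32, the muscle ubiquitin ligase also called atrogin-1, fell by 2.18 in overexpression (limma adjusted p=1.51e-05) against a knockdown log2 fold change of -0.24 (limma adjusted p=0.351). ULK1, the kinase that starts autophagy, fell by 0.78 (limma adjusted p=0.0364), but it was 0.72 higher in OE control replicate 1 than in the other 2 and lost the call without that library.

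Among the 9 oxidative stress genes, 7 fell (77.8%, against 20.5% of all genes) and 1 rose (11.1%, against 22.9%) in overexpression. In knockdown 1 rose (11.1%, against 5.28% of all genes) and 1 fell (11.1%, against 3.79%). TXNIP, which restrains thioredoxin and glucose uptake and is also glucose-induced, had 8265, 8165 and 8145 normalised counts in the OE control and 442, 410.3 and 443 in GALNT7 OE (log2 fold change -4.24, SE 0.0529, limma adjusted p=1.09e-07). It fell in knockdown as well, from between 6232 and 6466 to between 3744 and 3918 (log2 fold change -0.73, limma adjusted p=0.000438). SOD2, the mitochondrial superoxide dismutase and also a target of NF-kB, fell by 3.58 in overexpression (limma adjusted p=2.34e-08) and missed the threshold in knockdown (log2 fold change 0.22, limma adjusted p=0.0518). DEPP1, a FOXO-induced regulator of autophagy, fell by 1.82 (limma adjusted p=3.22e-06). SELENOP, a selenium carrier, rose by 0.61 in knockdown (limma adjusted p=0.0246) and fell by 0.98 in overexpression (limma adjusted p=0.00456). PRDX3, a mitochondrial peroxidase, was the 1 that rose in overexpression (log2 fold change 0.32, limma adjusted p=0.000534).

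Genes of cell cycle arrest and apoptosis were mixed. CDKN1A, the cyclin-dependent kinase inhibitor p21 and also a p53 target, rose in both cell lines, by log2 fold changes of 0.53 (limma adjusted p=0.00592) and 0.55 (limma adjusted p=0.000706). MXI1, an antagonist of MYC, rose by 0.37 in knockdown (limma adjusted p=0.0137) and fell by 0.43 in overexpression (limma adjusted p=0.0027). BTG1, RBL2 and GADD45A, which slow the cell cycle, fell in overexpression, with log2 fold changes of -0.83, -0.55 and -0.51 (limma adjusted p=4.05e-05, 0.000552 and 0.00439). Of 4 apoptosis genes tested there, 3 fell, where 20.5% of all genes were called lower. Without OE control replicate 1, 2 of the 4 were called lower. The largest fall was that of the death ligand TNFSF10, which is also interferon-induced. TNFSF10 had 237, 219.9 and 185 normalised counts in the OE control and 9.02, 37.9 and 13.6 in GALNT7 OE. BCL2L11, the pro-death protein BIM, did not pass the test. It was the 1 of the 32 induced genes lower in OE control replicate 1 by 0.5 or more, at 615 against 855 and 913 (-0.52). Of the 13637 genes averaging 50 normalised counts or more, 435 were lower there by that much. PDK4, which spares glucose in fasting, rose in knockdown from between 9044 and 10226 to between 20690.1 and 22383 (log2 fold change 1.16, limma adjusted p=0.000248). IGF1R, the receptor for insulin-like growth factor, rose by 1.32 in knockdown (limma adjusted p=0.00668) and fell by 0.57 in overexpression (limma adjusted p=0.0157), and EIF4EBP1, a brake on translation, rose by 1.03 in overexpression (limma adjusted p=5.53e-05).

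Several knockdown calls were lost when a library was left out, although their fold changes stayed above 0. SELENOP and MAP1LC3B each lost the threshold in 5 of the 6 fits that left out a library and MXI1 in 3 of 6, with adjusted p up to 0.084, 0.0994 and 0.0647 and log2 fold changes from 0.51 to 0.71, 0.30 to 0.37 and 0.35 to 0.40, while GABARAPL1, IGF1R, PDK4, BNIP3, CDKN1A and TXNIP kept it in all 6. In overexpression IGF1R lost it without OE control replicate 1 or GALNT7 OE replicate 1 (adjusted p up to 0.0533). BBC3 of the apoptosis list lost its overexpression call in 5 of the 6 fits (adjusted p up to 0.137). CAT of the oxidative stress list, ERBB3 and ULK1 each lost theirs in 4 of 6, with adjusted p up to 0.144, 0.125 and 0.0997.

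The 21 induced genes that fell with GALNT7 OE were also level in the control group. They were picked by a test on these same control libraries, which favours genes with close control values. That they are level is thus partly set by how they were picked. Replicate 1 minus the mean of replicates 2 and 3 had a median of 0.03 over them, with 9 below 0, none lower by 0.5 and 1, ULK1, higher by it. Their own differences ran from -0.30 to 0.72, beside -2.64 for FOXO1.

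Some of the induced genes carry the forkhead letters at their promoters. Of 31 with a RefSeq promoter, 7 (22.6%) held GTAAACA in at least 1 window, against 1145 of 27305 genes (4.19%); by promoter it was 8 of 42 (19.0%). Of these 7, 5 fell in overexpression, where 65.6% of the induced genes tested did. BCL2L11 (log2 fold change -0.04, limma adjusted p=0.855) and PIK3CA (0.001, limma adjusted p=0.995) did not pass there. The windows of the 5 that fell are shown on GRCh38.p14 with up to 17 bases on each side, written along the gene's strand with the motif in capitals.
TXNIP, chr1:145996680-145996720, minus strand: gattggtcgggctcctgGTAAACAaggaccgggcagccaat
DEPP1, chr10:44978966-44979006, minus strand: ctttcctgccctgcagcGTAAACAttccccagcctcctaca
SELENOP, chr5:42811914-42811954, minus strand: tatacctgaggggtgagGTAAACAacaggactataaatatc
MXI1, chr10:110210063-110210103, plus strand: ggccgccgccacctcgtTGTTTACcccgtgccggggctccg
MXI1, chr10:110225977-110226017, plus strand: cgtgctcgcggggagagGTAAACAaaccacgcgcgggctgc
BTG1, chr12:92146032-92146072, minus strand: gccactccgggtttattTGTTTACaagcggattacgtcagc
Of the same 7 genes, MXI1 and SELENOP were called higher in knockdown, where 25.0% of the induced genes tested were. BTG1, TXNIP, DEPP1, BCL2L11 and PIK3CA held the motif and were not called higher in knockdown. GABARAPL1, MAP1LC3B and IGF1R, which were called higher in knockdown, had none in these windows.

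Of 3 tested genes that FOXO factors are known to repress, 2 fell in knockdown (66.7%, against 3.79% of all genes). These were FOXM1, the mitotic forkhead factor (log2 fold change -0.40, limma adjusted p=0.00751), and CCND1, cyclin D1 (-0.39, limma adjusted p=0.0177). In overexpression FOXM1 rose from between 929.97 and 994 normalised counts to between 3654 and 3855 (log2 fold change 1.94, limma adjusted p=2.77e-06), and MYC, which drives growth, fell (log2 fold change -0.28, limma adjusted p=0.00806). By limma 9.06% of all genes passed in knockdown, against 0 of the 19 tested genes of the insulin, PI3 kinase and AKT route. Of these 19, 1 was at an unadjusted p under 0.05, 0 passed by edgeR and 1 by DESeq2. In overexpression 8 of 20 rose (40.0%, against 22.9% of all genes) and 4 of 20 fell (against 20.5% of all genes), with a median of 0.23; after 75th percentile scaling 6 rose and 6 fell. SGK1, a kinase that phosphorylates FOXO proteins beside AKT, fell most (log2 fold change -2.35, limma adjusted p=8.59e-06), while SGK3 and SGK2 of the same family rose by 0.65 (limma adjusted p=0.0121) and 1.07 (limma adjusted p=0.0439), the last a call lost after 75th percentile scaling and in 4 of the 6 fits that left out a library. PDPK1, which activates AKT and SGK kinases, fell by 0.81 (limma adjusted p=0.00043) and AKT1 by 0.31 (limma adjusted p=0.00492). The subunits of PI3 kinase were split. PIK3R3, a regulatory one, and PIK3CB, a catalytic one, rose by 1.05 (limma adjusted p=0.00325) and 0.42 (limma adjusted p=0.00158), and PIK3R2, also regulatory, fell by 0.33 (limma adjusted p=0.044), a call lost in 5 of the 6 fits that left out a library.

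Of 19 FOXO partners and modifiers, 1 fell in knockdown (5.26%, against 3.79% of all genes). It was the kinase CDK2 (log2 fold change -0.24, limma adjusted p=0.041). In overexpression 12 rose (63.2%, against 22.9% of all genes) and 1 fell (5.26%, against 20.5%), with a median of 0.31 and with 11 and 2 after 75th percentile scaling. The 1 that fell was SIRT2, a deacetylase (log2 fold change -0.39, limma adjusted p=0.0167). SKP2 and MDM2, the ubiquitin ligases that mark FOXO1 for breakdown, rose by 1.10 and 0.92 (limma adjusted p=0.000169 and 0.00306), CDK2 by 0.96 (limma adjusted p=2.57e-05) and XPO1, the exportin that carries FOXO proteins out of the nucleus, by 0.78 (limma adjusted p=0.000526). The 19 include the 14-3-3 gene YWHAE, listed at 0 in 10 of the 12 libraries. It had 321 normalised counts in shControl replicate 1 and 288 in OE control replicate 1.

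Several genes of these lists lie on chromosome 12, on which none of the 9 genes lies. Over its 922 tested genes the median log2 fold change in GALNT7 KD was -0.28, beside -0.00628 over all genes. CDKN1B, the kinase inhibitor p27 (-0.32, limma adjusted p=0.0413), ERBB3, a growth factor receptor (-0.40, limma adjusted p=0.0317), FOXM1 and CDK2 lie there and fell by about as much, and GABARAPL1 lies there and rose. The part of the chromosome in these values was not tested. The calls of CDKN1B, ERBB3, CCND1 and CDK2 were each lost in at least 3 of the 6 fits that left out a library, with adjusted p up to 0.133, 0.104, 0.0712 and 0.132.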

How the data were processed

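Each cell line has a table of 59424 Ensembl genes, in which the authors deposited a signal they call normalised counts, that is reads scaled by 1 size factor for each library. The submitters' processing notes name FastQC, Salmon, R 3.5.3, DESeq2 and hg38, and libraries were made with a stranded kit from polyadenylated RNA. Dividing by the value of 1 read gave whole reads for 100% of the values (tolerance 1e-06). Names, positions and exon lengths were those of GENCODE 29, where 94.4% of the identifiers were found.

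Differences were tested within each cell line in R 4.3.3 with limma 3.58.1 (eBayes with trend) on log2(normalised count + 1), leaving out genes that averaged under 5 over the 6 libraries, with Benjamini-Hochberg adjustment over all genes and a threshold of 0.05. Fold changes on this scale understate those of low genes. Members and lists were chosen with earlier results of these data known. Besides the members, the text could name, per list and direction, up to 4 genes past the threshold with a mean of at least 50 and no overlap, list genes differing by 0.5 in OE control replicate 1, and the 5 genes per cell line nearest to FOXO1; it names some of these. FOXO6, YWHAE, CAT, PIK3CA and values of named genes in the other comparison were added after their values were seen. Alternatives were other pseudocounts and filters, 75th percentile and quantile scaling, a replicate block, eBayes without trend, each replicate left out, and edgeR 4.0.16 and DESeq2 1.42.0 on recovered CWR22Rv1 reads. The fits were tested on simulated data. The values of 1 marker gene are not reported here.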

Additional observations from a re-analysis of the deposited data

How the results depend on the processing

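In overexpression the 7 member calls, the 21 and 4 calls among induced genes and the 8132 calls overall stayed within 1.5 times under every alternative run; edgeR and DESeq2 were not run for DU145. In knockdown 1623 genes passed, but 1002 with the replicate block, 996 without the eBayes trend, 2642 with DESeq2 and between 539 and 1336 with a library left out. The 2 member calls became 0 without the trend (FOXO3 adjusted p=0.0531, IRS2 0.0592) and between 0 and 2 with a library left out. Of induced genes, 3 were lower in knockdown, 1 without the trend, 5 with DESeq2 and between 1 and 3 with a library left out; 8 were higher, and then between 5 and 7. CCNG2 in knockdown turned to -0.0127 after 75th percentile scaling and -0.0150 after quantile normalisation. With a library left out, knockdown log2 fold changes ran from -0.118 to 0.166 for FOXO4, -0.161 to 0.219 for INSR, -0.0565 to 0.0785 for CCNG2 and -0.0862 to 0.0395 for CITED2. Same-numbered libraries did not vary together (correlations of deviations -0.011, 0.0747 and -0.00568 in CWR22Rv1, 0.0432, 0.0428 and 0.0159 in DU145), so the numbers were not read as pairs; with the block 2 and 7 members passed, as without it.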
